A study of Mus musculus with 30 samples.

Results

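The interferon-stimulated genes described here are 41 named members, matched by symbol to the gene identifiers of a count table of 35120 genes, and all 41 were found. Each was followed across all 30 RNA sequencing libraries of mouse white fat, from mice labelled Ctnnb1AdKO, with β-catenin deleted in adipocytes, and from sex- and age-matched Ctnnb1fl/fl controls, which carry the same floxed allele. Collagenase digestion split the fat into floating adipocytes and the pelleted stromal vascular cells (SVC), a mixture of progenitors, immune, endothelial and other cells. Adipocytes came from 6 control and 6 knockout female libraries and from 6 control and 5 knockout male libraries, and SVC from 3 control and 4 knockout male libraries. Every library, the female ones included, is labelled with the epididymal and posterior subcutaneous depots together. The depots of the female libraries are therefore uncertain, and sex and depot may not be told apart. The labels give no age in numbers, no Cre line and no deleted exons, and they do not say that each replicate was a separate mouse, so p-values measure the spread between these libraries.

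Interferons are secreted proteins that bind receptors on the cell surface and, through the JAK kinases and STAT proteins, switch on a large set of genes. Type I interferons act mainly through a complex that includes Stat2 and Irf9 and binds a DNA element called the interferon-stimulated response element (ISRE). Interferon-γ acts mainly on elements called gamma-activated sites (GAS). The products sense foreign nucleic acid, block viral replication, attack membranes around intracellular microbes, or load and present peptide antigens, and in fat they are made by adipocytes as well as by macrophages and endothelial cells.

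Of the 41 members, 30 had a promoter window in the RefSeq table for GRCm38.p6, which runs from 250 bases before to 50 bases after the transcript start. Oas2, Zbp1, Mx1, Parp14, Iigp1, Rtp4, Mx2, Gm4841, Usp18, Dhx58 and Parp9 had none. The ISRE-like pattern GAAANNGAAA was searched on both strands and stood in the windows of 16 of the 30, or 53.3%, against 3.99% of all 27025 genes with a window. The GAS-like pattern TTCNNNGAA stood in 8 of the 30, or 26.7%, against 9.55% of all genes. 4 members held both patterns, and 1 of the 9 GAS-like matches shared bases with an ISRE-like match. In 8 members the ISRE-like pattern occurred more than once.

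The stretches below, 60 bases around the match farthest upstream, are shown because their genes went in different directions in the comparisons: Irgm1, Gbp2 and Ifit1 had among the larger knockout values, Isg15 and Oas1a were higher in SVC, and Ifit3, Ifit3b and Cxcl10 were higher in adipocytes. Capitals mark the ISRE-like letters or their reverse complement, and each stretch is on the strand that the RefSeq table gives for the gene.
Irgm1 (chr11:48871406-48871465, minus strand): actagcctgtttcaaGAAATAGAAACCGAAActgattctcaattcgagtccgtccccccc
Gbp2 (chr3:142620589-142620648, plus strand): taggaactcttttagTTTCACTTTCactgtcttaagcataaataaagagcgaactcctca
Ifit1 (chr19:34640770-34640829, plus strand): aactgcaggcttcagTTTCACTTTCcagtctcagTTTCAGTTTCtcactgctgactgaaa
Isg15 (chr4:156200852-156200911, minus strand): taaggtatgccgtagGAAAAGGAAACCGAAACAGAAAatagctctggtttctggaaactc
Oas1a (chr5:120907501-120907560, minus strand): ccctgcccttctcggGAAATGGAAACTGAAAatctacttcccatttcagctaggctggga
Ifit3 (chr19:34583358-34583417, plus strand): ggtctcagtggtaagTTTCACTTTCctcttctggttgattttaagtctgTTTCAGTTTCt
Ifit3b (chr19:34607754-34607813, plus strand): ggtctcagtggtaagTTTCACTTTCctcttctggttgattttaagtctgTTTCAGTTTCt
Cxcl10 (chr5:92349058-92349117, minus strand): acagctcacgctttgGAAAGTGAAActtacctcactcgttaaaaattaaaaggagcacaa

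In Isg15, Irgm1 and Oas1a the GAAA units followed each other without a gap between matches, whereas Ifit1 held 2 separate matches. Ifit3 and its neighbour Ifit3b had the same 60 bases, with the first match starting at position -156 in Ifit3 and -188 in Ifit3b relative to the RefSeq start. For Ifit3b, unlike the other genes shown, the window was not found to read along the transcript, so its position is less certain. The first match began at -20 in Oas1a, -30 in Irgm1, -59 in Gbp2, -78 in Isg15, -104 in Ifit1 and -213 in Cxcl10. A match describes letters in the window and is not a measured binding site. Where gene copies are this alike, as for Ifit3 and Ifit3b or within the Oas, Gbp and immunity-related GTPase families, reads could be split between copies, and the counts of single members are uncertain to that extent.

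Library totals ranged from 20484836 to 22209603 counts, so the same gene was counted at nearly the same depth everywhere. Levels are given as CPM, the count scaled to the library total. Summed levels of 8 adipocyte markers were 27111 to 49594 CPM in adipocyte libraries and 1018 to 2236 CPM in SVC libraries, in keeping with the labelled fractions. Ctnnb1 itself was not lower in the knockout-labelled libraries. It was 291 to 359 CPM in female control adipocytes and 283 to 367 CPM in female knockouts, 308 to 341 CPM and 308 to 368 CPM in males, and 442 to 553 CPM and 353 to 748 CPM in SVC. The count of the whole gene therefore does not check the genotype labels, and the words control and knockout below stand for libraries so labelled.

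**Figure D1:**
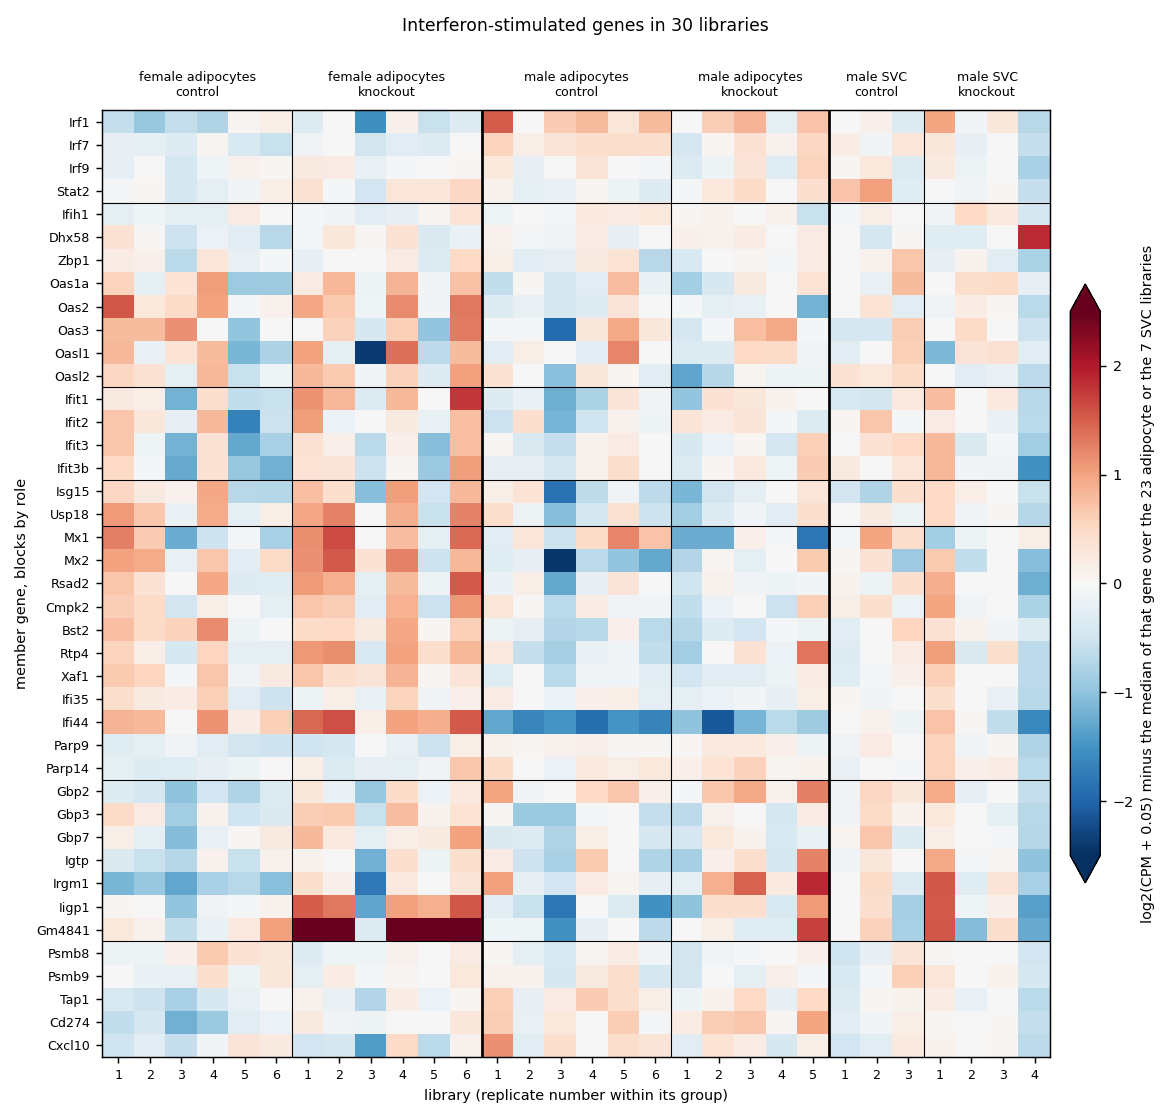
The level of each of the 41 members (rows, by role) in each of the 30 libraries (columns, by group), as log2(CPM + 0.05) minus that gene's median over the 23 adipocyte or the 7 SVC libraries. Female knockout 3 and SVC knockout 4 were lowest of their groups for 24 and 38 members, and SVC knockout 1 was highest of its group for 32. Shares of all genes with such ranks are not given here.

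Levels per kilobase of exon, which allow genes to be compared, spanned about 4 orders of magnitude in adipocytes. In male control adipocytes the highest were Cxcl10, a chemokine that attracts cells bearing Cxcr3, at 230 ± 82.7 CPM per kb (SD, n = 6), and the transcription factor Irf1 at 153 ± 58.8 CPM per kb. They did not differ beyond their spread. Gbp2, a guanylate-binding protein, followed at 68.5 ± 20.4 CPM per kb, and Bst2, which tethers budding virus to the cell surface, at 21.5 ± 5.48 CPM per kb. Gbp2 and Bst2 stood apart by more than their SDs.

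At the other end, Oas3, a synthase of the 2-5A second messenger, was at 0.0224 ± 0.0145 CPM per kb in male control adipocytes, with 0 to 7 counts in a library, and was too low to be tested in adipocytes. Ifi44 was at 0.0480 ± 0.00769 CPM per kb in that group. Parp9, which acts with the ubiquitin ligase Dtx3l in DNA repair and interferon signalling, followed Bst2 among the 11 members grouped as other antiviral effectors, at 15.4 ± 0.463 CPM per kb. In SVC controls the order was closer together at the top, with Irf1 at 65.7 ± 10.7, Gbp2 at 47.4 ± 9.76, Cxcl10 at 44.3 ± 11.9 and Bst2 at 37.5 ± 11.2 CPM per kb (n = 3), and each value lay within the sum of its SD and that of its neighbour.

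Replicates of one group differed appreciably. The median coefficient of variation over the members was 25.5% in male control adipocytes, 28.6% in female controls, 33.0% in female knockouts, 28.6% in male knockouts, 20.6% in SVC controls and 30.3% in SVC knockouts. In male control adipocytes Parp9 was the steadiest member, at 3.00%, and Oas3 the least steady, at 64.6%. Members tended to be high or low together in a library. Female knockout 6 was the highest of its group for 20 members and female knockout 3 the lowest for 24. Male knockout 5 was the highest for 23, male knockout 1 the lowest for 27, and male control 3 the lowest for 24. Shares of all genes so ranked are not given here, so this is not shown to be particular to the members. Male knockout 5 differed from the other male knockouts by a chi-square per gene of 133.3 to 161.8, against 12.94 to 34.58 among the others.

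In female adipocytes, knockout libraries had higher values than controls for most members, and 1 member passed the test. Gm4841, a predicted gene of the immunity-related GTPase family (ENSMUSG00000068606), rose by 2.83 on the log2 scale. The other immunity-related GTPases and guanylate-binding proteins, Ifit1 and the checkpoint ligand gene Cd274 had positive values that did not pass the test across all genes. Psmb8 and Cxcl10 were the members with negative values. In bulk libraries, fewer cells of a type and less RNA per cell cannot be told apart.

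Gm4841 was at 0.461 to 1.54 CPM in the 6 female controls, with a median of 0.834 CPM and 10 to 33 counts in a library. In the 6 female knockouts it was 8.10, 5.41, 0.570, 4.36, 6.49 and 10.6 CPM, or 12 to 228 counts. Of the 6 knockout libraries, 5 lay above every control and knockout 3 lay among the controls. The log2 fold change was 2.83 (SE 0.47), with an adjusted p of 0.00526 from edgeR's quasi-likelihood test. Leaving out each library in turn kept the adjusted p between 0.000153 and 0.0200, while limma-voom gave 0.0706.

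Iigp1 (ENSMUSG00000054072), a GTPase that loads onto the vacuole of intracellular parasites, was at 38.0 to 79.8 CPM in female controls (median 74.6) and at 216, 187, 30.2, 153, 140 and 220 CPM in the knockouts. Irgm1 (ENSMUSG00000046879), a regulator of these GTPases and of autophagy, was at 17.8 to 27.2 CPM in controls (median 22.0) and at 57.8, 47.7, 12.7, 52.1, 43.9 and 54.8 CPM in knockouts. In each case 5 knockouts lay above all controls and knockout 3 below them. The log2 fold changes were 1.26 for Iigp1 (SE 0.39, edgeR adjusted p = 0.186) and 1.07 for Irgm1 (SE 0.34, edgeR adjusted p = 0.204). Without knockout 3, Iigp1 passed the test (edgeR adjusted p = 0.0388) and Irgm1 did not (0.0578).

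Cd274 (ENSMUSG00000016496), which encodes PD-L1, the ligand that restrains T cells through PD-1, ran from 6.78 to 14.2 CPM in female controls (median 10.9) and from 14.3 to 19.0 CPM in knockouts (median 15.8). It was the only one of the 40 tested members whose female groups did not overlap. Over all genes tested, 0.295% had every female knockout above every control and 0.59% below. Its log2 fold change was 0.68 (SE 0.20, edgeR adjusted p = 0.144). Ifit1, whose protein binds viral RNA that lacks the host cap, ran from 1.84 to 5.74 CPM in controls (median 3.85) and from 3.32 to 14.6 CPM in knockouts (median 7.58). These ranges overlapped, and the log2 fold change was 1.10 (SE 0.32, edgeR adjusted p = 0.144).

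No member of the other roles passed the test in females. The highest values among them were those of Mx1, a dynamin-like GTPase against viruses, and Rtp4, a chaperone of receptors, both chosen after their values were seen. Mx1 had 0.0922 to 0.751 CPM in controls, 0.234 to 0.987 CPM in knockouts and a log2 fold change of 0.97 (SE 0.45, edgeR adjusted p = 0.464) from 2 to 21 counts in a library. Rtp4 had 5.63 to 11.0 CPM, 5.65 to 16.6 CPM and 0.74 (SE 0.30, edgeR adjusted p = 0.368), and both overlapped between genotypes. Among transcription factors, Stat2 had the smallest p, with 15.5 to 23.3 CPM in controls, 14.9 to 29.8 CPM in knockouts and a log2 fold change of 0.35 (SE 0.14, edgeR adjusted p = 0.379). Of the 7 tested sensors and OAS genes, Dhx58, a helicase of the RIG-I family, had 4.70 to 9.72 CPM in controls, 5.93 to 9.81 CPM in knockouts and 0.28 (SE 0.14). Ifi44 had 0.968 to 2.18 CPM against 1.09 to 3.06 CPM and 0.63 (SE 0.24), and Usp18, the protease that removes Isg15, had 1.89 to 4.74 CPM against 1.49 to 5.31 CPM and 0.36 (SE 0.30). All of these groups overlapped. Of the members with the highest CPM in their roles, Irf1 (0.08), Ifih1 (0.14), Ifit3 (0.34), Isg15 (0.31), Parp9 (0.15) and Cxcl10 (-0.13) had log2 fold changes smaller than those of the GTPases, with SEs of 0.10 to 0.35.

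**Figure D2:**
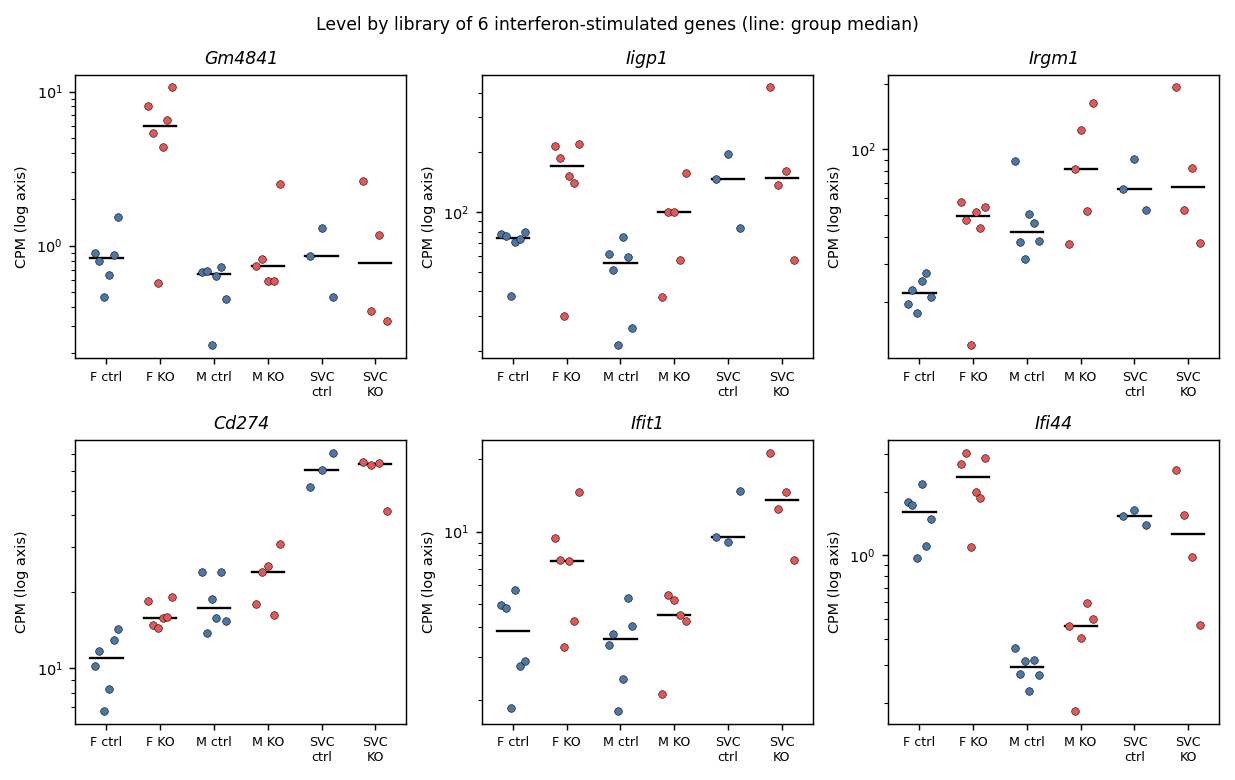
Levels of Gm4841, Iigp1, Irgm1, Cd274, Ifit1 and Ifi44 in every library (points, CPM on a log axis) by group, with a line at each group's median. In female adipocytes 5 of 6 knockouts lie above all controls for Gm4841, Iigp1 and Irgm1, and the sixth, knockout 3, lies among or below the controls.

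Over the 40 members tested in female adipocytes, 1 was called higher and 0 lower at an adjusted p under 0.05, where 0.471% of 14227 genes were called either way and 0.323% higher. At an unadjusted p under 0.05, 12 members were higher and 0 lower, where 4.79% of all genes were higher and 5.53% lower. Positive values were found in 38 of 40 members, against 51.5% of all genes, and the median log2 fold change was 0.35 for the members and 0.0064 for all genes. The members were chosen with earlier results of these data known and tended to be high or low together in a library. These shares, here and in the comparisons below, therefore describe the list and do not test it. With library totals and no further scaling, 35 of 40 were positive and the median was 0.28. Without knockout 3, 39 of 40 were positive, the median was 0.48 and 2 members were called. Limma-voom called 0 members, with 13 at an unadjusted p under 0.05, and DESeq2 called 3 (Gm4841, Ifit1 and Cd274).

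In these female libraries macrophage markers and MHC class II genes had negative values by genotype. All 14 tested macrophage markers of 15 listed had negative values, and C1qc, a complement subunit made by tissue macrophages, was called lower by 1.19 on the log2 scale (SE 0.26, edgeR adjusted p = 0.0376). The summed level of the macrophage markers was 304 to 601 CPM in controls and 91.9 to 372 CPM in knockouts, with none of the 15 at 0 throughout a group. MHC class II genes summed to 270 to 821 CPM and 75.0 to 467 CPM, and T and NK cell markers to 0.644 to 3.33 CPM and 0.793 to 3.29 CPM, with Ncr1 at 0 in each adipocyte group. Knockout 3, the library with the lowest Irgm1 and Iigp1, also had the lowest macrophage sum (91.9 CPM) and endothelial sum (188 CPM) of the female knockouts. The part of these cells in the members' values was not tested.

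**Figure D3:**
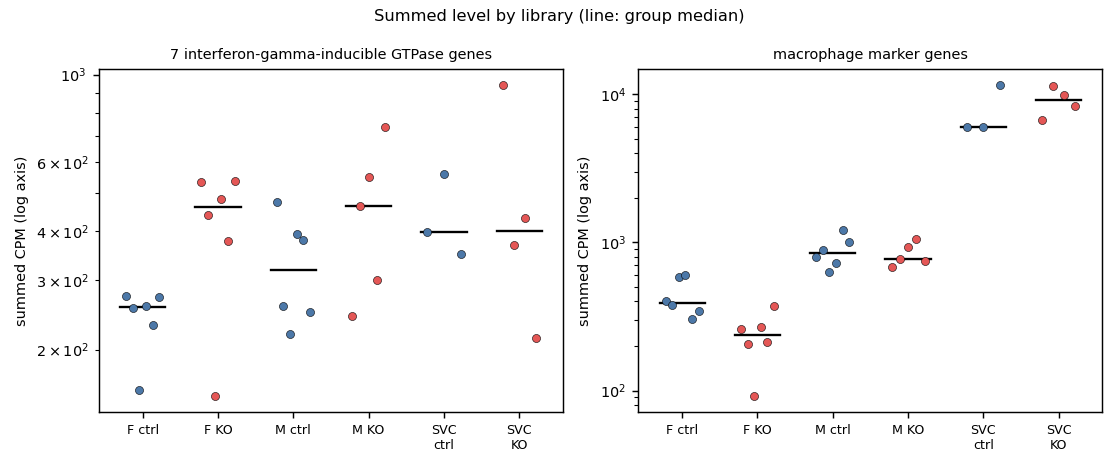
Summed CPM of the 7 interferon-γ-inducible GTPases and of 15 macrophage markers in every library, by group. Female knockouts have GTPase sums of 152 to 538 CPM against 158 to 274 CPM in controls, while their macrophage sums are 91.9 to 372 CPM against 304 to 601 CPM.

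In male adipocytes, no member passed the test, and the members as a group showed no common direction. Irgm1 was at 31.4 to 88.9 CPM in controls (median 42.0) and at 36.9, 81.2, 123, 52.3 and 162 CPM in the 5 knockouts. Iigp1 was at 21.4 to 75.3 CPM in controls (median 55.5) and at 37.3, 101, 100.4, 57.8 and 158 CPM in knockouts. For Irgm1 2 knockouts exceeded every control and for Iigp1 3 did, and knockouts 1 and 4 lay within the control range. The log2 fold changes were 0.87 for Irgm1 (SE 0.35, edgeR adjusted p = 0.288) and 0.86 for Iigp1 (SE 0.40, edgeR adjusted p = 0.364).

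Gm4841 was at 0.225 to 0.725 CPM in male controls (median 0.656) and at 0.735, 0.823, 0.587, 0.590 and 2.53 CPM in knockouts, with 5 to 56 counts in a library. Knockout 5 was far above the rest, and the log2 fold change was 0.87 (SE 0.55, edgeR adjusted p = 0.511). Mx2, a relative of Mx1, had 0.87 (SE 0.38, edgeR adjusted p = 0.332). Mx1 had -1.30 (SE 0.55, edgeR adjusted p = 0.319) from 4 to 16 counts in control libraries and 1 to 7 in knockouts. Mx2 libraries held 3 to 34 counts in males.

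Stat2 was at 16.6 to 22.2 CPM in male controls and at 20.4, 25.1, 28.7, 20.8 and 27.4 CPM in knockouts, with a log2 fold change of 0.31 (SE 0.15, edgeR adjusted p = 0.390). All 5 knockouts lay above the control median of 18.7 CPM and 3 lay above every control. Ifih1, the MDA5 sensor of double-stranded RNA, was at 21.2 to 27.3 CPM and at 23.3, 24.4, 23.1, 24.6 and 15.5 CPM, with -0.18 (SE 0.13). Cxcl10 was at 327 to 863 CPM and at 326, 495, 446, 296 and 430 CPM, with -0.42 (SE 0.27), and Ifit2 had 0.31 (SE 0.33) and Usp18 -0.07 (SE 0.33). These groups overlapped.

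Over the 40 members tested in males, edgeR called 0, where 0.0703% of all genes were called, and DESeq2 and limma-voom also called 0. At an unadjusted p under 0.05, edgeR gave 3 higher (Irgm1, Mx2 and Iigp1) and 1 lower (Mx1), DESeq2 3 and 1, and limma-voom 2 and 2, where edgeR placed 6.95% of all genes higher and 6.13% lower. Positive values were found in 21 of 40 members, against 52.5% of all genes, and the median was 0.0094, against 0.015 for all genes. No member's male groups were free of overlap, where 1.01% of all genes had every knockout above every control and 0.766% below. The macrophage markers, at 636 to 1215 CPM in male controls and 680 to 1055 CPM in knockouts, had 5 of 14 positive values.

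**Figure D4:**
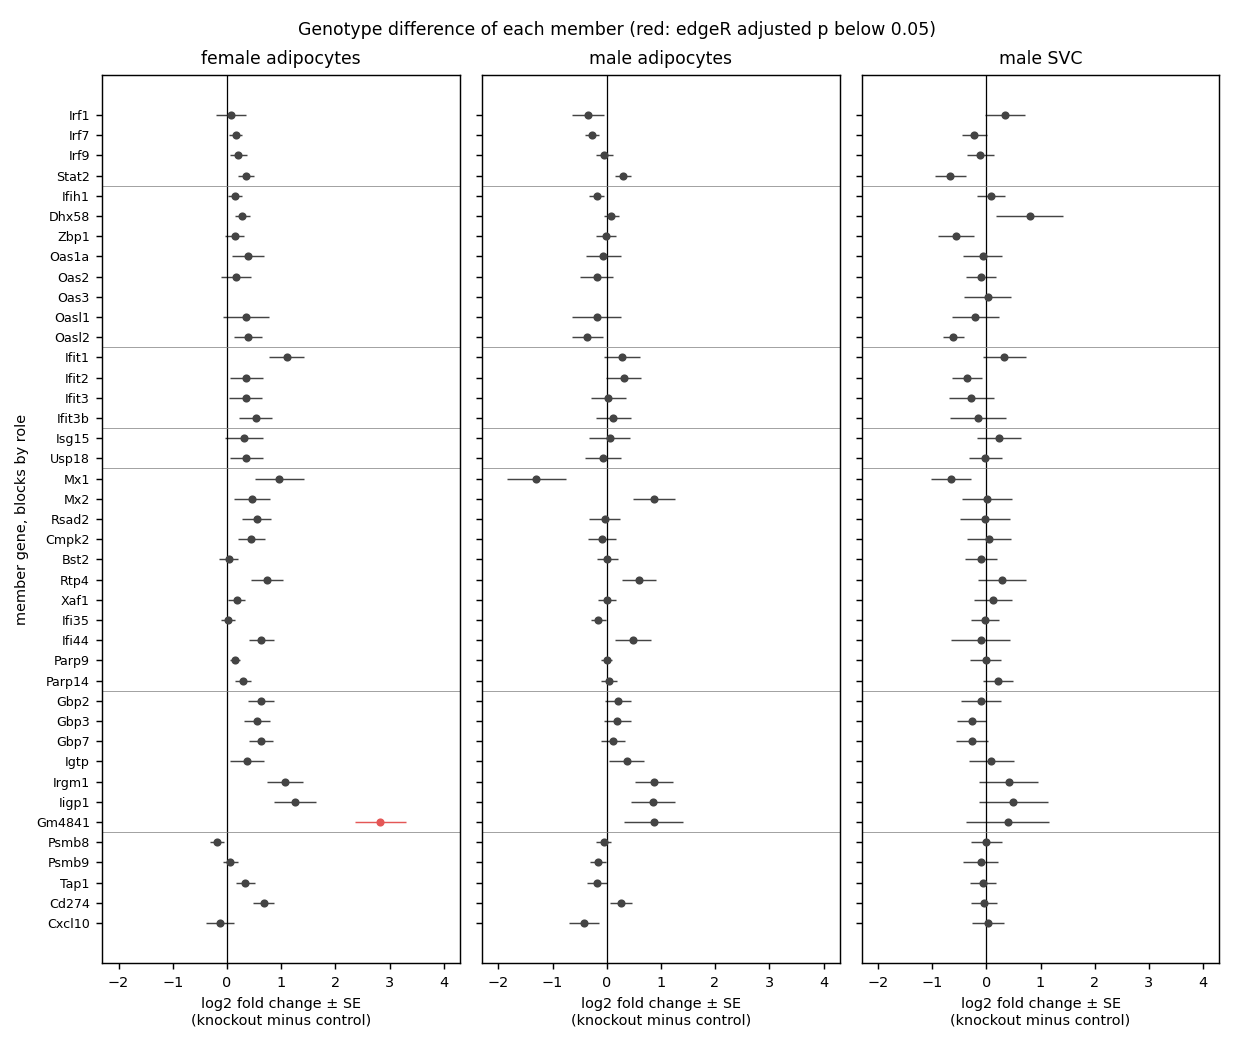
Knockout minus control log2 fold change (± SE) of each member in female adipocytes, male adipocytes and SVC, with the member that passed the test, Gm4841 in females at 2.83, in red. Most female values lie to the right of 0, and the male and SVC values lie on either side.

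Averaged over the sexes, which uses the same libraries again, Gm4841 was the member that passed the test, at 1.85 on the log2 scale (SE 0.36, edgeR adjusted p = 0.0127), where 0.759% of all genes were called and 0.415% higher. Irgm1 had 0.97 (SE 0.24, edgeR adjusted p = 0.0623), Iigp1 1.06 (SE 0.28, 0.0765), Cd274 0.47 (SE 0.14, 0.111), Stat2 0.33 (SE 0.10, 0.131) and Ifit1 0.69 (SE 0.23, 0.164). At an unadjusted p under 0.05, 12 members were higher and 0 lower, where 7.87% of all genes were higher and 7.15% lower, and 31 of 40 members were positive, against 52.4% of all genes. Without female knockout 3, 4 members were called (Gm4841, Irgm1, Iigp1 and Stat2), and without male control 1 or male knockout 1, 2 were called. The genotype effect was compared directly between the sexes by an interaction term, and 0 members differed, where 0.0141% of all genes did. At an unadjusted p under 0.05 edgeR gave 3 members with a larger value in females (Mx1, Gm4841 and Irf7) and 0 with a smaller one, where 4.06% and 4.81% of all genes did, and DESeq2 gave 4 and limma-voom 2. Gm4841 differed by 1.96 (SE 0.73, unadjusted p = 0.0129, edgeR adjusted p = 0.439), and 38 of 40 members had a larger value in females than in males, against 48.3% of all genes, with a median difference of 0.32 against -0.011 for all genes. Because members tended to be high or low together in a library, these are not 40 separate observations, and single libraries can move most of them. Library totals without further scaling moved the all-gene median to -0.11 and the members' median to 0.22, with 34 of 40 positive.

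Control adipocytes of the sexes differed in many members, in each direction. Ifi44, Mx2, Bst2, Oas2 and Xaf1 were higher in females, and Irgm1, Irf1, Gbp2, Cd274, Tap1, Irf7, Parp9 and Parp14 were higher in males. That is 5 members higher and 8 lower of 40, against 23.7% of all genes higher and 20.1% lower (43.8% either way), so the share of members called was below that of all genes. Of the 5 higher, Ifi44 passed the filter on low counts through female libraries alone, and Mx2 through female and male knockout libraries. The male controls brought neither through, so both calls carry no weight. These control libraries also enter the genotype comparisons above.

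Ifi44, an interferon-induced protein with a GTP-binding motif, was at 0.968 to 2.18 CPM in female controls and 0.227 to 0.362 CPM in male controls (5 to 8 counts). Its groups did not overlap, which carries no weight for the reason given above. Mx2 was at 0.782 to 1.97 CPM in females and 0.135 to 0.817 CPM in males (3 to 18 counts). Bst2 was at 22.6 to 56.3 CPM and 14.9 to 26.8 CPM and differed by 0.86 on the log2 scale (SE 0.18, edgeR adjusted p = 0.000655). Mx2 and Bst2 overlapped between the sexes at the edges of their ranges.

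Irgm1 was at 17.8 to 27.2 CPM in female and 31.4 to 88.9 CPM in male controls and differed by -1.14 (SE 0.34, edgeR adjusted p = 0.00905). Gbp2 was at 64.1 to 103 CPM and 123 to 254 CPM and differed by -0.98 (SE 0.23, edgeR adjusted p = 0.00183). Irf1, which activates antigen-presentation and GTPase genes, was at 186 to 407 CPM and 361 to 1036 CPM and differed by -1.14 (SE 0.28, edgeR adjusted p = 0.00268). Irgm1, Gbp2, Irf7 and Parp9 had every female library below every male one, where 11.2% of all genes did. Ifi44 was the one member with every female library above, where 9.48% did, but it passed the filter through female libraries alone, so this carries no weight. Irf1 overlapped.

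The calls of Oas2 (0.80, edgeR adjusted p = 0.0259) and Parp14 (-0.39, 0.0326) rested on single libraries: without one control, the adjusted p of Oas2 rose to as much as 0.141 and that of Parp14 to as much as 0.0649. Macrophage markers were lower in female controls too, 9 of 14 called, with sums of 304 to 601 CPM against 636 to 1215 CPM in males. Their part in the sex differences of the members was not tested.

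In SVC, no member passed the test between genotypes, and no gene of 16404 did (0%). Oasl2, an OAS-like protein, was at 26.5, 25.0 and 28.6 CPM in the 3 controls and at 20.7, 17.1, 18.2 and 13.2 CPM in the 4 knockouts. All 4 knockouts lay below all controls, as for 2.92% of all genes, while no member lay above, as 0.988% of all genes did, and the log2 fold change was -0.61 (SE 0.20, unadjusted p = 0.0193, edgeR adjusted p = 0.968). It was the single member at an unadjusted p under 0.05 by edgeR and by limma-voom, and DESeq2 gave 2, all lower, with 0 called by any of the 3 tools. By edgeR 0.421% of all genes were higher and 2.19% lower at that p. Stat2 was at 49.9, 61.8 and 24.7 CPM in controls and 30.3, 28.7, 30.9 and 20.2 CPM in knockouts (-0.66, SE 0.28), with control 3 among the knockouts.

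The GTPases gave no common picture in SVC. Irgm1 was at 65.8, 90.8 and 52.9 CPM in controls and at 192, 53.0, 82.3 and 37.4 CPM in knockouts, and Iigp1 at 148, 197 and 83.5 CPM and at 424, 137, 161 and 57.4 CPM. For these 2 genes knockout 1 exceeded all other SVC libraries and knockout 4 was the lowest. Gbp3 was at 39.9, 59.6 and 45.1 CPM and at 51.5, 42.6, 36.2 and 26.3 CPM (-0.27, SE 0.26), and Mx1 at 3.76, 7.64 and 5.26 CPM and at 2.11, 3.53, 3.86 and 4.34 CPM (-0.65, SE 0.38). Ifit2 had -0.36 (SE 0.27), Isg15 0.23 (SE 0.40) and Psmb9, an immunoproteasome subunit, -0.11 (SE 0.32).

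Over all 41 members in SVC, 16 had positive values, against 56% of all genes, and the median was -0.030, against 0.044 for all genes. With DESeq2's size factors 21 were positive and the median was 0.0045, so no direction holds. Knockout 1 was the highest of its group for 32 members and knockout 4 the lowest for 38. The shares of all genes so ranked are not given here, so these ranks are not shown to be particular to the members. Ctnnb1, not a member, was also highest in knockout 1 (748 CPM) and lowest in knockout 4 (353 CPM). Knockout 4 differed from the other knockouts by a chi-square per gene of 202.6 to 272.1, against 27.56 to 76.19 among the others. The endothelial marker sums of knockouts 1 and 4 also stood apart, at 2711 and 318 CPM. They were 1005 and 799 CPM in the other knockouts and 606 to 1348 CPM in controls, and the part of these cells was not tested. Without knockouts 1 and 4, an alternative chosen after seeing the data, 16 of 41 were positive and the median was -0.042. Dhx58 ran against the pattern, with 38.2 CPM in knockout 4 and 7.73 to 10.6 CPM in the other 6 SVC libraries.

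The genotype effect in SVC was set against that in male adipocytes by an interaction term, and edgeR called 0 members, as it called 0% of 17251 genes. At an unadjusted p under 0.05, edgeR gave 0 members higher and 1 lower, where 3.81% and 2.85% of all genes were, and DESeq2 and limma-voom gave 1 member each. That member was Stat2 by edgeR, with a difference of -0.92 (SE 0.29, unadjusted p = 0.0050, edgeR adjusted p = 0.649).

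Control SVC and control adipocytes of males differed in most members, as in most genes, and the families split. Of the 41 members, 20 were called higher in SVC and 8 higher in adipocytes, where 44.2% of all genes were called higher in SVC and 32.8% lower (77.1% either way). The share of members called either way was thus below that of all genes. Of the 20, Oas3 and Mx1 passed the filter on low counts through SVC libraries alone. Ifi44 passed it through SVC and male knockout adipocyte libraries, and not through the adipocyte controls compared here. The calls of these members therefore carry no weight. Oas1a, Oas2, Oasl1, Oasl2, Mx2, Ifit1, Ifit2, Rsad2, Isg15 and Cd274 were higher in SVC. Cxcl10, Ifit3, Ifit3b, Irf1, Parp9, Gbp2, Psmb9 and Ifi35 were higher in adipocytes. SVC libraries held 6027 to 11549 CPM of macrophage markers and 79.5 to 118 CPM of T and NK cell markers in controls, against 636 to 1215 CPM and 0.588 to 1.31 CPM in adipocytes.

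Oasl1, which in mice limits translation of Irf7, was at 40.6, 49.1 and 74.1 CPM in SVC controls and 2.63 to 7.48 CPM in adipocyte controls, a difference of 3.35 on the log2 scale (SE 0.37, edgeR adjusted p = 3.4e-07). Oas3 was at 2.95, 2.90 and 6.05 CPM in SVC and 0 to 0.317 CPM in adipocytes (0 to 7 counts). Mx1 was at 3.76, 7.64 and 5.26 CPM and 0.180 to 0.725 CPM (4 to 16 counts). Oasl1 did not overlap between fractions. Oas3 and Mx1 did not either, which carries no weight because SVC libraries alone brought them past the filter.

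In the other direction, Cxcl10 was at 78.7, 90.6 and 130 CPM in SVC controls and 327 to 863 CPM in adipocyte controls and differed by -2.89 (SE 0.35, edgeR adjusted p = 8.6e-07). Irf1 was at 271, 298 and 214 CPM and 361 to 1036 CPM and differed by -1.77 (SE 0.39, edgeR adjusted p = 0.000538). Ifit3b was at 2.62, 2.22 and 2.75 CPM and 4.59 to 8.52 CPM and differed by -1.81 (SE 0.41, edgeR adjusted p = 0.000676). All 3 had every SVC library below every adipocyte library.

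The IFIT family, whose 4 members lie in a cluster on chromosome 19, was divided by fraction. Ifit2 was at 18.2, 28.5 and 16.9 CPM in SVC and 0.946 to 2.95 CPM in adipocytes (2.96, SE 0.28) and Ifit1 at 9.48, 9.04 and 14.7 CPM and 1.80 to 5.30 CPM (1.17, SE 0.36). Ifit3 was at 9.72, 12.6 and 13.7 CPM in SVC and 13.8 to 24.0 CPM in adipocytes (-1.24, SE 0.34). For none of the 4 genes did the fractions overlap. Ifit1, Ifit2 and Ifit3 were chosen for description after their values were seen.

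**Figure D5:**
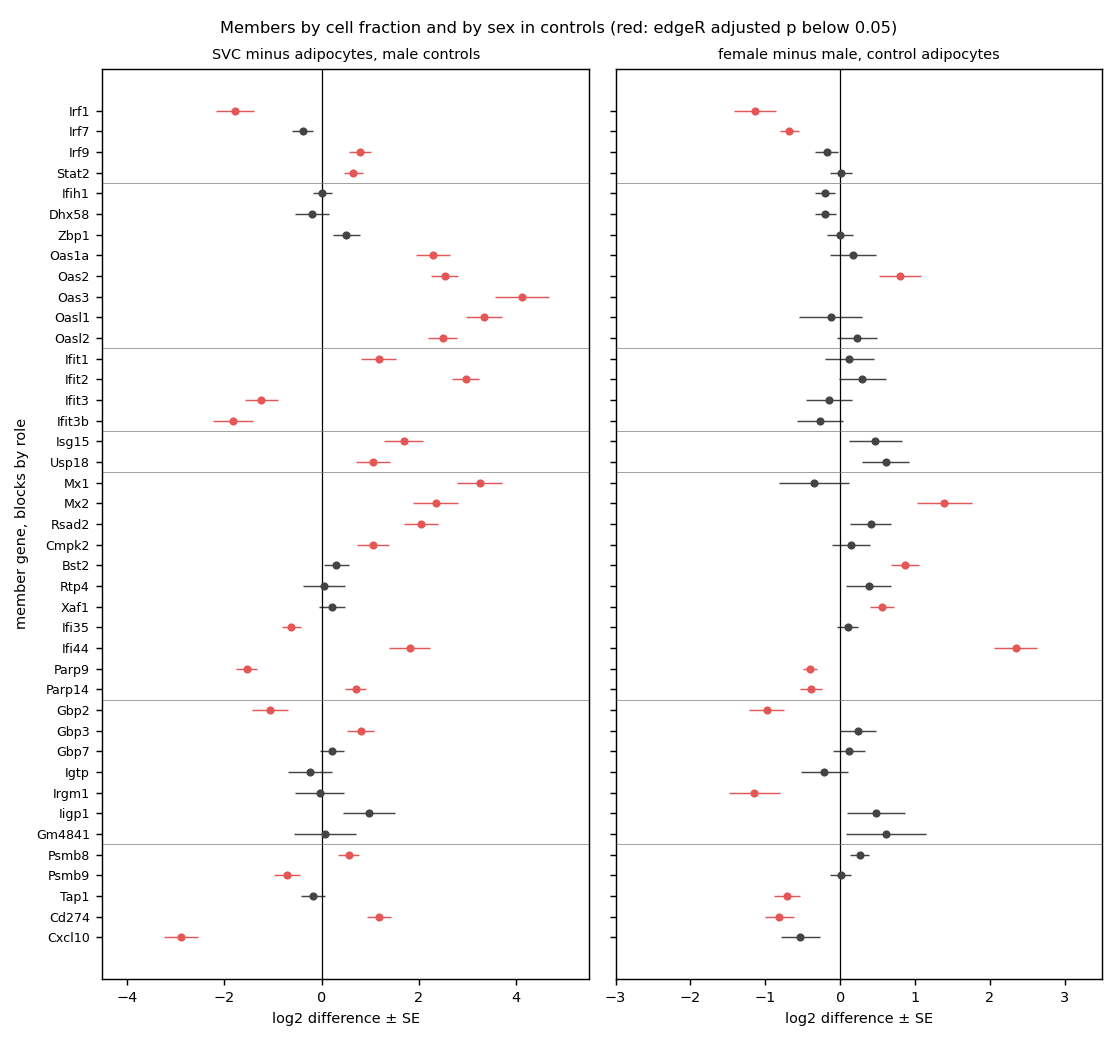
Log2 fold change (± SE) of each member between SVC and adipocytes of male controls and between female and male control adipocytes. Oasl1 (3.35) and Cxcl10 (-2.89) lie far apart in the fraction comparison, and Bst2 (0.86) and Irgm1 (-1.14) in the sex comparison. In the first comparison, Oas3 and Mx1 passed the filter on low counts through SVC libraries alone, and Ifi44 did not pass it through the adipocyte controls. In the second, Ifi44 and Mx2 did not pass it through the male controls.

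The number higher in adipocytes depended on how libraries were scaled. With trimmed-mean scaling the median log2 fold change was 0.56 for the members and 0.29 for all genes, and with library totals alone 1.07 and 0.85, with 26 members called higher in SVC and 5 lower. Gbp2, Psmb9 and Ifi35 lost their calls under library totals (edgeR adjusted p = 0.165, 0.408 and 0.706), and Cxcl10, Irf1, Parp9, Ifit3 and Ifit3b kept theirs. Those 5 were also the members whose CPM lay below every adipocyte library in all SVC controls, as for 22.1% of all genes, while 24 members lay above, as for 52.5%. The 24 include Oas3, Mx1 and Ifi44, which the adipocyte controls did not bring past the filter, so their separation carries no weight. Leaving out a single SVC control ended the calls of Gbp2 (0.0778), Psmb9 (up to 0.143), Gbp3 (up to 0.0815), Stat2 (0.133), Psmb8 (0.493) and Ifit1 (0.0994).

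No gene upstream of the members passed the test between genotypes in females, in males or in SVC. The interferons themselves were scarce. Ifnb1, encoding interferon-β, summed to 86 counts over the 6 female control libraries, 71 over the 6 female knockouts, 37 over the 6 male controls and 14 over the 5 male knockouts, and Ifng to 4 counts in female controls and 0 in the other adipocyte groups. In SVC, Ifng summed to 169 counts in the 3 controls and 89 in the 4 knockouts. The log2 fold change of Ifnb1 was -0.18 in females (SE 0.62, edgeR adjusted p = 0.954).

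Of the receptor chains and kinases, 0 of 10 tested in adipocytes passed the test by genotype in either sex. Il10rb, a shared receptor chain for interferon-λ and interleukin-10, had the smallest p in females, at -0.39 (SE 0.12, edgeR adjusted p = 0.189). None of 14 sensors and adaptors passed, with Ikbke, a kinase that phosphorylates Irf3, at 0.31 (SE 0.13, edgeR adjusted p = 0.394). None of 10 negative regulators passed, with Socs3, a feedback inhibitor of JAK signalling, at -0.51 (SE 0.21, edgeR adjusted p = 0.368). In a list of 51 further interferon-stimulated genes, of which 48 were tested in adipocytes, 0 were called in females or in males. There 38 of 48 had positive values in females with a median of 0.22, against 51.5% of all genes, and 22 of 48 in males, against 52.5%. This list too was chosen with earlier results of these data known, so these shares describe it and do not test it. Averaged over the sexes, Samd9l, a restriction factor of viral translation, was called higher at 0.45 (SE 0.10, edgeR adjusted p = 0.0262), where 0.415% of all genes were called higher.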

How the data were processed

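RNA was sequenced strand-specifically per the labels' protocols. The deposited table holds raw counts per gene. FastQC 0.12.1, STAR 2.7.11a, DESeq2 and the mm39 build are named in the submitters' processing notes. How reads were counted, whether by strand and against which annotation, is not stated in these sources. Columns were matched to samples by the names in the labels. The members and gene lists were chosen with earlier results of these data known. Genes were tested with edgeR 4.0.16 (R 4.3.3): trimmed-mean scaling (TMM), a minimum count of 10, robust quasi-likelihood F tests, Benjamini-Hochberg adjustment over all genes tested and a threshold of 0.05. Adipocyte groups were fitted together, as were the SVC groups and the male groups. Alternatives were DESeq2 1.42.0, limma-voom (limma 3.58.1), other scalings and filters, and leaving out libraries. No pair of libraries in a group agreed within sampling noise. The tests were tried on simulated counts.

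Library values are given for members called by genotype, for the member of smallest p of each role in the female, male and SVC comparisons, for the member of highest mean CPM of each role, and for the 3 called members of largest difference each way between sexes and fractions. Other members with values were chosen after these were seen. From other lists, called genes or the gene of smallest p in females are named. RefSeq windows (GRCm38.p6) and exon lengths (GENCODE vM21) come from another build than the counts and were joined by gene name or identifier. Intervals and SEs cover these libraries only.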

Additional observations from a re-analysis of the deposited data

Results flagged for a closer look

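A library was set apart where its gap to the nearest value was large against the range of its group (Dixon's test), which chance does in about 1 of 20 groups, and 13 of 205 tests did so. In male control adipocytes, control 5 was highest for Oas1a (3.04 CPM, next 1.81 CPM) and Oasl1 (7.48 CPM, next 3.54 CPM), and control 1 was highest for Irgm1 (88.9 CPM, next 50.6 CPM) and Cxcl10 (863 CPM, next 525 CPM). Male knockout 5 was lowest for Ifih1 (15.5 CPM, next 23.1 CPM) and Oas2 (0.451 CPM, next 0.914 CPM) and highest for Gm4841 (2.53 CPM, next 0.823 CPM). SVC knockout 4 was highest for Dhx58 (38.2 CPM, next 10.4 CPM) and lowest for Psmb8 (65.6 CPM, next 92.0 CPM), Cd274 (41.7 CPM, next 63.1 CPM) and Cxcl10 (68.8 CPM, next 109 CPM). In females, control 3 was lowest for Iigp1 (38.0 CPM, next 70.6 CPM) and knockout 3 lowest for Irgm1 (12.7 CPM, next 43.9 CPM). The 3 SVC controls were too few for this test.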

How the results depend on the processing

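Members called higher in female knockouts numbered 3 with DESeq2, 0 with limma-voom and 1 to 2 when each library was left out. Averaged over the sexes they numbered 3, 0 and 1 to 4. Usp18 in male adipocytes (-0.066) ranged from -0.267 to 0.0880 with single libraries left out, positive without control 1, control 5 or knockout 1, and Psmb9 in SVC (-0.106) from -0.350 to 0.326, positive without control 3 or knockout 4, and 0.0991 with the replicate block. The cause was not tested. Between fractions, library totals gave 5 members lower and a median of 1.07. Under the other scalings and filters run, the counts of called members stayed within 1.5 times those reported. Same-numbered libraries deviated together with r above 0.1 in 5 of 6 pairs in females (-0.05 to 0.58), 1 of 5 in males, 2 of 3 in SVC, and between fractions 2 of 3 control and 3 of 3 knockout pairs (-0.012 to 0.25). Not every pair did, so the numbers were not taken to pair them. The main tests thus treated same-numbered libraries as independent, although the same numbers stand in the column names of both fractions. Pairing is not excluded. As a hint from the data, 6 of 12 female, 1 of 10 male adipocyte and 1 of 6 SVC libraries, and between fractions 4 of 6 control and 6 of 6 knockout libraries, correlated best with their own number. Each pair enters these counts from both of its libraries. With the replicate block 1 member was called higher in females and 0 in males and SVC, and 19 higher and 8 lower between fractions, where Psmb8 lost its call (edgeR adjusted p = 0.0564). The block could not be fitted between the sexes. Depth limits Oas2, Oas3, Oasl1, Ifit2, Mx1, Mx2, Ifi44 and Gm4841 in adipocytes, each with under 20 counts in some libraries.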

Other observations

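Among members with a promoter window, those with the ISRE-like pattern had a median log2 fold change by genotype of 0.39 in female adipocytes (14 of 15 tested positive), and those without it 0.27 (13 of 14). In male adipocytes the medians were 0.12 (11 of 15 positive) and -0.12 (4 of 14), and in SVC -0.046 (7 of 16) and -0.085 (3 of 14). No test was made of these differences.

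MHC class II genes had 0 of 7 positive values by genotype in female adipocytes and 7 of 7 in SVC, with 0 called in either. Mesothelial markers summed to 8.19 to 67.7 CPM in female control and 7.40 to 16.4 CPM in female knockout adipocytes, and averaged over the sexes Upk3b (-1.52, SE 0.36, edgeR adjusted p = 0.0439) and Krt19 (-2.12, SE 0.45, edgeR adjusted p = 0.0262) were called lower.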
